A study of Homo sapiens with 40 samples.

Results

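The linker histone H1 genes of the main histone gene cluster were followed after siRNA knockdown of 3 regulators of histone gene transcription. The 6 genes were taken by their identifiers: HIST1H1A (ENSG00000124610_at), HIST1H1B (ENSG00000184357_at), HIST1H1C (ENSG00000187837_at), HIST1H1D (ENSG00000124575_at), HIST1H1E (ENSG00000168298_at) and HIST1H1T (ENSG00000187475_at). All 6 were present among the 22069 features of the expression table. The table held 40 Affymetrix Human WT 1.1 arrays of bulk RNA from U2OS cells, a human osteosarcoma line, and hTERT-RPE1 cells, a normal human retinal pigment epithelial line immortalised with telomerase. Each line was transfected with 15 nM of siRNA, given as a set of 4 siRNAs for each targeted gene. On days 1 and 2 the siRNAs were a non-targeting control and CASP8AP2, with 3 arrays in each of 8 groups. On day 3 they were control, CASP8AP2, NPAT and HINFP, with 2 arrays in each of 8 groups. The labels name the arrays of a group as biological replicates, but each pair of day 3 was transfected at the same time, so its spread may be partly technical. Each of these sets, days 1 and 2 or day 3, was tested on its own, because the sets may have been normalized separately.

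Linker histone H1 binds the nucleosome where DNA enters and leaves it and helps to fold chromatin. Most of its subtypes are made during S phase from genes that lack introns and whose mRNAs end in a stem-loop rather than in a poly(A) tail. NPAT, a substrate of cyclin E and its kinase, and CASP8AP2, also known as FLASH, sit in the histone locus body, the nuclear site where these genes are transcribed and their mRNAs processed. HINFP is a zinc finger protein known for activating histone H4 genes. HIST1H1A, HIST1H1B, HIST1H1C, HIST1H1D and HIST1H1E encode the somatic subtypes H1.1, H1.5, H1.2, H1.3 and H1.4, while HIST1H1T encodes H1t, which is normally made in the testis.

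The promoters of the 6 genes are shown because H1 genes share a known upstream element, the H1 box. RefSeq held a promoter for each of the 6 under its newer name. The 190 bases just before each transcription start are given 5′ to 3′ on the gene's strand (build GRCh38.p14), with capitals for the H1 box letters AAACACA on either strand, the CCAAT box, and the TATA letters TATAAA or TATATA, which overlap in some genes.
HIST1H1A (H1-1, chr6:26017788-26017977, minus strand): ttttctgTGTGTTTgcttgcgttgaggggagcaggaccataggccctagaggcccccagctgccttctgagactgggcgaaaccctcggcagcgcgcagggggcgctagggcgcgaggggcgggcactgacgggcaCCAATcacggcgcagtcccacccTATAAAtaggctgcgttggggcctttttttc
HIST1H1B (H1-5, chr6:27867589-27867778, minus strand): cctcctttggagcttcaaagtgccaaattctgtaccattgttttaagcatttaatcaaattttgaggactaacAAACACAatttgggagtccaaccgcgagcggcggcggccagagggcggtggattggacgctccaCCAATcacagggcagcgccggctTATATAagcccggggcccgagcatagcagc
HIST1H1C (H1-2, chr6:26056471-26056660, minus strand): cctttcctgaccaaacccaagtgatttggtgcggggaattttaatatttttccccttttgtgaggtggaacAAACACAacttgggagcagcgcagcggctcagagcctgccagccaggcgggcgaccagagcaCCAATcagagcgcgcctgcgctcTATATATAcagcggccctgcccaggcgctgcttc
HIST1H1D (H1-3, chr6:26234988-26235177, minus strand): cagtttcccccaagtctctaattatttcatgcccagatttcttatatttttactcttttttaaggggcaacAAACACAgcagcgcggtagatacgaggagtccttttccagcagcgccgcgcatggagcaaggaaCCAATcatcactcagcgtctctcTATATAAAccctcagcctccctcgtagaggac
HIST1H1E (H1-4, chr6:26156139-26156328, plus strand): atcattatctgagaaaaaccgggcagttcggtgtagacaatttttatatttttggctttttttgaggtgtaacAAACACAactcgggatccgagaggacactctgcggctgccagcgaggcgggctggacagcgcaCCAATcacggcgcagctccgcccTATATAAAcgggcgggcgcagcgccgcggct
HIST1H1T (H1-6, chr6:26108136-26108325, minus strand): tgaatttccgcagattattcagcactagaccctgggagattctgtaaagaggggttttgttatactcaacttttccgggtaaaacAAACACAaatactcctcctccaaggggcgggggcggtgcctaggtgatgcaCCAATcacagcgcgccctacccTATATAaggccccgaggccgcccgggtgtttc

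In 5 of the 6 promoters the H1 box letters lay on the gene's own strand, 105 bases before the start in HIST1H1T and 117 to 119 bases before it in HIST1H1B, HIST1H1C, HIST1H1D and HIST1H1E. In HIST1H1A they were found only on the opposite strand, 183 bases before the start. Beyond the bases shown, HIST1H1B held the H1 box letters again on its own strand, 226 bases before the start. HIST1H1C held them again on the opposite strand, 242 bases before it. The CCAAT box lay 53 to 57 bases before the start in all 6 genes. TATAAA was found in HIST1H1A, HIST1H1D and HIST1H1E, and TATATA, searched after the sequences had been seen, in all but HIST1H1A. Over the windows of 250 bases before to 50 after the start, 5.64% of the 35116 RefSeq promoters held the H1 box letters on either strand and 34.6% held CCAAT. The TATAAA letters were in 11.5% and TATATA in 3.99%. All 3 kinds of element together were in 0.584% of promoters on either strand and in 0.157% with each on the gene's strand, which was so for 5 of the 6 H1 genes. CGTCCGC, a motif linked to HINFP, was in 4.27% of promoters and in none of the 6. These letter matches describe the windows searched and were not tested for binding.

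On the log2 scale the array means were 6.00 to 6.05 in the first set and 5.85 to 5.88 in the second, arrays of a group correlated at r = 0.995 to 0.998 over all features, and no columns were identical. Each targeted gene fell in every group that received its siRNA: CASP8AP2 by 0.76 to 0.85 (log2) in hTERT-RPE1 cells and by 1.18 to 1.73 in U2OS cells, NPAT by 1.31 and 1.59, and HINFP by 1.05 and 1.64. Of the cell type markers, few could be matched: RLBP1 and BEST1, 2 of 8 for retinal pigment epithelium, had means between 3.55 and 4.28 with control siRNA in both lines, in the low part of the range. RUNX2, a bone transcription factor, was at 9.57 to 9.67 in hTERT-RPE1 cells and lower, 7.34 to 7.87, in U2OS cells, against its use as a bone marker, and IBSP, 1 of the other bone genes, was at 3.47 to 4.21 in both. With control siRNA RUNX2 and IBSP were both lower in U2OS cells on days 1 and 2, at an adjusted p under 0.05 in limma. Of all features, 48.7% and 50.8% passed that threshold there.

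**Figure D1:**
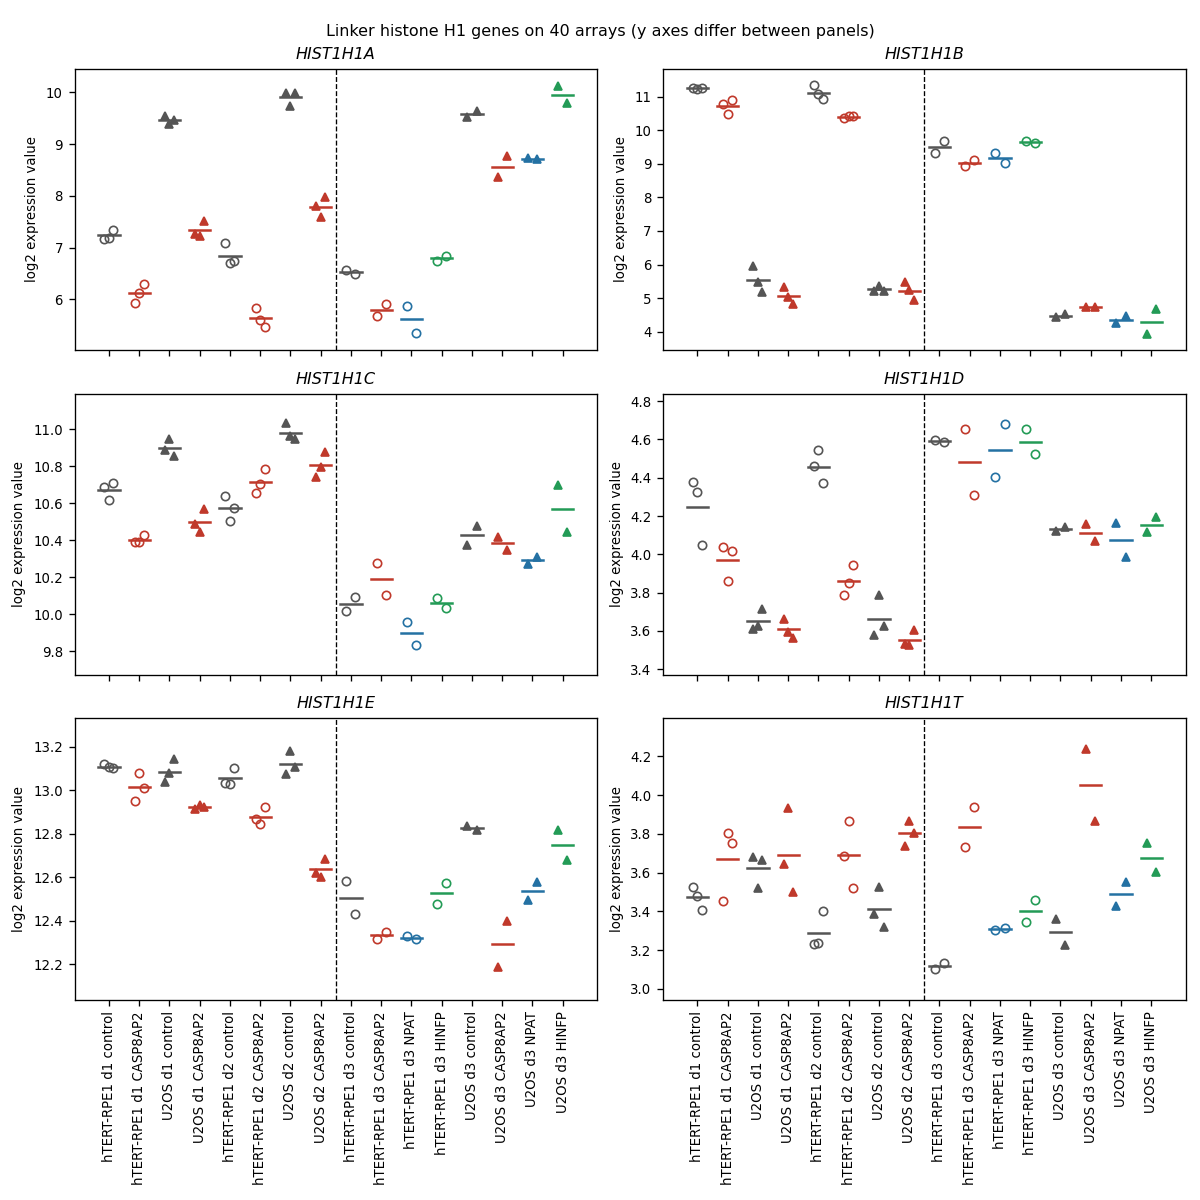
Log2 expression value (y axis, a different range in each panel) of each linker histone H1 gene on each array, for the 16 groups of line, day (d) and siRNA on the x axis. Open circles are hTERT-RPE1 arrays, filled triangles U2OS arrays, horizontal lines group means, colours siRNAs, and the dashed line parts days 1 and 2 from day 3. HIST1H1A lay between 5.36 and 7.34 in hTERT-RPE1 cells and between 7.23 and 10.12 in U2OS cells, while HIST1H1B was the reverse, with no array of hTERT-RPE1 under 8.92 and none of U2OS over 5.96.

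A call below is a Benjamini-Hochberg adjusted p under 0.05 in limma, adjusted over all 22069 features of a comparison, and differences are in log2 units. A gene's own values can be compared across arrays, but those of different genes come from different probes and are not set against each other. HIST1H1E lay near the top of the arrays' range, at 12.19 to 13.18 with the highest value of any feature at 13.58. HIST1H1D, at 3.53 to 4.68, and HIST1H1T, at 3.10 to 4.24, lay in its lower part, and whether either end narrows differences was not tested. The H1 genes are close relatives whose probes could share signal; probe sequences were not used here.

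With CASP8AP2 siRNA the H1 genes did not move as 1 block. In hTERT-RPE1 cells 2 of the 6 genes were called lower on day 1, where 0.793% of all features were called in either direction. On day 2, 4 were called lower and 1 higher, against 6.4% of all features. On day 3, 1 was lower and 1 higher, against 6.15%. In U2OS cells 2 were called lower on day 1 (5.87% of all features), 3 lower and 1 higher on day 2 (24.9%), and 2 lower and 1 higher on day 3 (18.9%). The median log2 difference of the 6 genes was -0.27, -0.39 and -0.14 in hTERT-RPE1 cells and -0.28, -0.14 and -0.03 in U2OS cells on days 1, 2 and 3, while that of all features was between -0.03 and 0.02 in each of these comparisons. On bulk arrays a change in the number of cells in S phase and a change in H1 mRNA per cell cannot be told apart. By cytometry after CASP8AP2 siRNA, the paper reports a slowed S phase with more cells in it for U2OS cells. For hTERT-RPE1 cells it reports an arrest in S phase. The part of either in the H1 values was not tested.

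On day 3 fewer of the 6 were called with NPAT and HINFP siRNA than with CASP8AP2 siRNA. Fewer of all features were called too, so these counts do not rank the siRNAs. NPAT siRNA on day 3 lowered 1 H1 gene in each line, where 5.04% of all features were called in hTERT-RPE1 cells and 8.13% in U2OS cells. HINFP siRNA gave no call by limma in either line. The share of all features called was 4.15% in hTERT-RPE1 and 9.43% in U2OS cells, and the number of H1 genes with an unadjusted p under 0.05 was 1 and 2. All siRNAs of a line and day were set against the same control arrays.

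**Figure D2:**
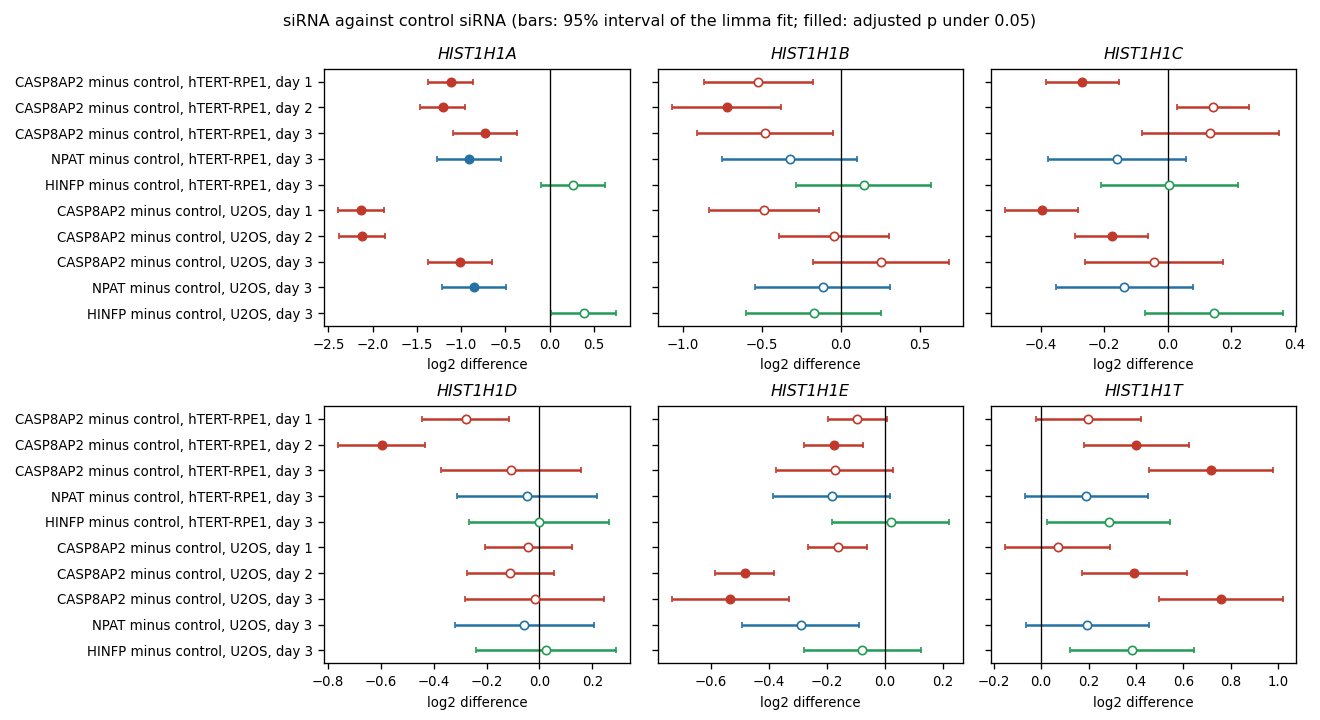
Log2 difference between each siRNA and control siRNA (x axis, a different range in each panel) for the 6 linker histone H1 genes in the 10 comparisons on the y axis. Points are limma estimates, bars 95% intervals and filled points calls, with CASP8AP2 in red, NPAT in blue and HINFP in green. HIST1H1A is called lower in the 8 comparisons of CASP8AP2 and NPAT siRNA and in none of HINFP siRNA, and HIST1H1T is the 1 gene with calls to the right of 0.

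HIST1H1A was lower with CASP8AP2 siRNA in both lines on all 3 days. In U2OS cells its values on day 1 were 9.55, 9.38 and 9.47 with control siRNA and 7.26, 7.23 and 7.51 with CASP8AP2 siRNA. The groups lay far apart, with a difference of -2.13 ± 0.12 (SE, n = 3 against 3; adjusted p = 9.62e-10), which left 22.8% of the control level on a linear scale. On day 2 the control arrays were at 9.99, 9.74 and 9.98 and the CASP8AP2 arrays at 7.80, 7.59 and 7.97, a difference of -2.12 ± 0.12 (SE; adjusted p = 5.2e-11). The effect of day 2 minus that of day 1 was 0.01, with a 95% interval from -0.35 to 0.37. On day 3 the control arrays were at 9.52 and 9.63 and the CASP8AP2 arrays at 8.36 and 8.76, a difference of -1.01 ± 0.17 (SE, n = 2 against 2; adjusted p = 0.00135).

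In hTERT-RPE1 cells HIST1H1A had lower control values and also fell. On day 1 it read 7.18, 7.19 and 7.34 with control siRNA and 5.94, 6.12 and 6.30 with CASP8AP2 siRNA (difference -1.12 ± 0.12, adjusted p = 1.64e-05). On day 2 it read 7.09, 6.69 and 6.74 against 5.83, 5.60 and 5.47 (difference -1.21 ± 0.12, adjusted p = 1.09e-06). The groups did not overlap on either day. On day 3 the control arrays, at 6.57 and 6.49, were again above the CASP8AP2 arrays, at 5.69 and 5.92 (difference -0.73 ± 0.17, adjusted p = 0.0226). Without any 1 of these 4 arrays the day 3 difference lay between -0.84 and -0.61 and was not called, with an adjusted p of up to 0.147.

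The larger fall of HIST1H1A in U2OS cells passed a test of the difference between lines. Subtracting the CASP8AP2 siRNA effect of hTERT-RPE1 cells from that of U2OS cells gave -1.02 ± 0.17 for day 1 (adjusted p = 0.00604). For day 2 it gave -0.91 ± 0.17 (adjusted p = 0.00142). On day 1 it was the 1 H1 gene called of 6, against 0.689% of all features. On day 3 the difference between lines was -0.28, with an interval from -0.80 to 0.23, and no H1 gene was called by limma, against 9.55% of all features and with 2 H1 genes at an unadjusted p under 0.05. HIST1H1E, at -0.36 there, was called without U2OS CASP8AP2 replicate 2 (-0.47), with a trend and with all 40 arrays in 1 fit. The CASP8AP2 transcript itself differed in the same direction between the lines, at -0.45 (adjusted p = 0.159), -0.97 (adjusted p = 4.56e-05) and -0.41 (adjusted p = 0.113) over the 3 days, and the part of that in the H1 values was not tested.

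NPAT siRNA also lowered HIST1H1A in both lines on day 3. In U2OS cells the NPAT arrays were at 8.73 and 8.71 (difference from control -0.85 ± 0.17, adjusted p = 0.0087). In hTERT-RPE1 cells they were at 5.87 and 5.36 (difference -0.91 ± 0.17, adjusted p = 0.00885). Both pairs lay below their control arrays. The difference between the 2 siRNAs, NPAT minus CASP8AP2, was 0.16 in U2OS cells (95% interval -0.21 to 0.52) and -0.19 in hTERT-RPE1 cells (-0.55 to 0.18), with no call. The call in U2OS cells was lost without control replicate 2 or NPAT replicate 2 (differences of -0.79 and -0.84, adjusted p up to 0.0648), and that in hTERT-RPE1 cells without NPAT replicate 2 (difference -0.66, adjusted p = 0.079) or in a fit of the compared arrays alone.

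HIST1H1A gave no call with HINFP siRNA. The HINFP arrays read 10.12 and 9.80 in U2OS cells and 6.74 and 6.84 in hTERT-RPE1 cells, above both control arrays in each line. Their differences from control were 0.38 (95% interval 0.02 to 0.75, adjusted p = 0.194) and 0.26 (-0.10 to 0.63, adjusted p = 0.437), neither of which was called. Set directly against the other siRNAs, HIST1H1A was higher with HINFP than with CASP8AP2 siRNA by 1.40 ± 0.17 in U2OS cells (adjusted p = 0.000508) and by 0.99 ± 0.17 in hTERT-RPE1 cells (adjusted p = 0.00513). It was higher with HINFP than with NPAT siRNA by 1.24 ± 0.17 (adjusted p = 0.00142) and by 1.18 ± 0.17 (adjusted p = 0.00304) in the same order. The call against CASP8AP2 in hTERT-RPE1 cells was lost without CASP8AP2 replicate 1 or HINFP replicate 2, at 0.88 and 0.94, and that against NPAT in a fit of the compared arrays alone.

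Few other H1 genes differed between the siRNAs of day 3. For HINFP against CASP8AP2 siRNA the calls were HIST1H1A in hTERT-RPE1 cells (3.81% of all features) and HIST1H1A and HIST1H1E in U2OS cells (5.6%). For HINFP against NPAT siRNA HIST1H1A was called in hTERT-RPE1 cells (3.63%) and in U2OS cells (4.04%). For NPAT against CASP8AP2 siRNA the call was HIST1H1T in hTERT-RPE1 cells (2.38%) and in U2OS cells (3.5%).

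**Figure D3:**
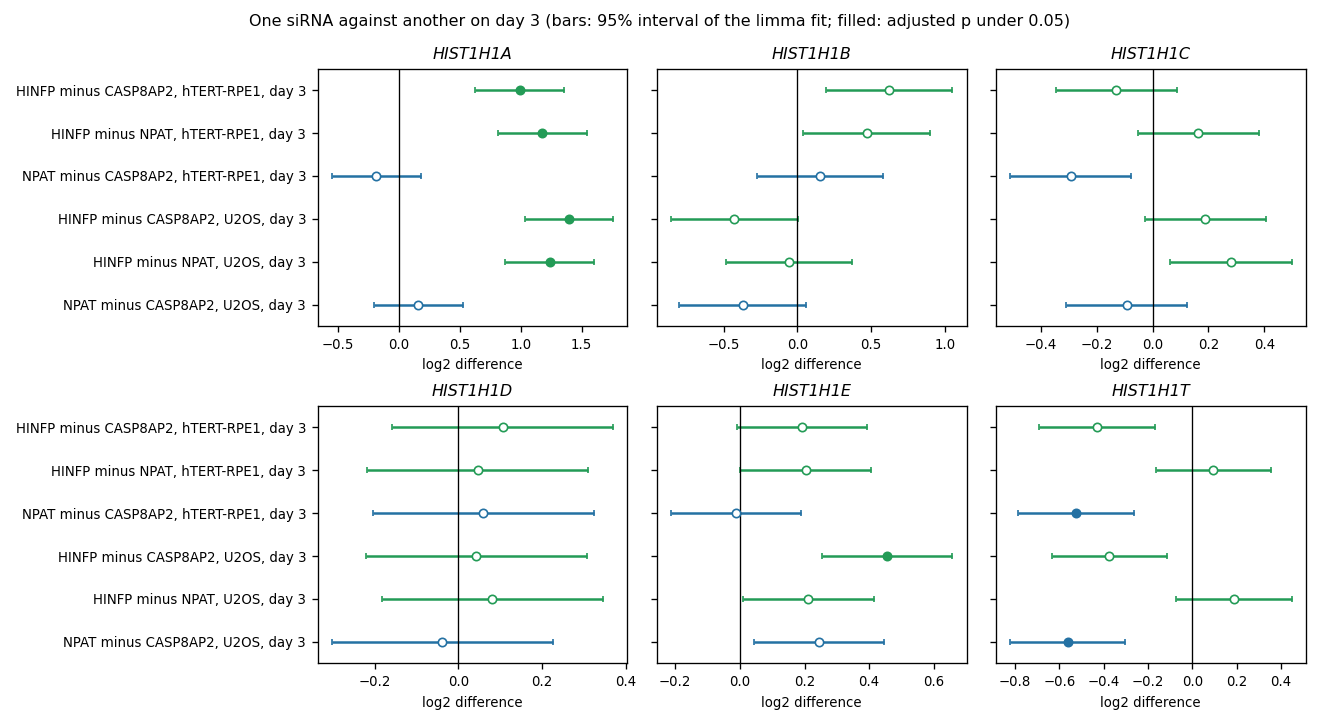
Log2 difference between 2 siRNAs on day 3 (x axis, a different range in each panel) for the 6 linker histone H1 genes, with the 6 pairs on the y axis. Points are limma estimates, bars 95% intervals and filled points calls, with green for HINFP and blue for NPAT as the first siRNA. HIST1H1A lies at 0.99 to 1.40 in the 4 pairs with HINFP siRNA, and HIST1H1T at -0.52 and -0.56 for NPAT minus CASP8AP2.

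HIST1H1E, the gene of H1.4, fell with CASP8AP2 siRNA in U2OS cells on days 2 and 3. On day 1 its U2OS values were 13.04, 13.08 and 13.14 with control and 12.91, 12.93 and 12.93 with CASP8AP2 siRNA, a difference of -0.16 that was not called (adjusted p = 0.0547) but was called after centring (adjusted p = 0.0359), with the filter at a mean of 5 (0.0234) and with a trend in eBayes (0.00751). On day 2 they were 13.07, 13.18 and 13.11 against 12.62, 12.60 and 12.69 (difference -0.48 ± 0.05, adjusted p = 1.8e-07). On day 3 they were 12.84 and 12.82 against 12.19 and 12.40 (difference -0.53 ± 0.09, adjusted p = 0.00182). The groups did not overlap on any day. The change from day 1 to day 2 in U2OS cells, -0.32 ± 0.07, was itself called (adjusted p = 0.00602), the 1 H1 gene of 6 where 7.04% of all features were.

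In hTERT-RPE1 cells HIST1H1E fell less on day 2. Its values were 13.03, 13.03 and 13.10 with control siRNA and 12.87, 12.85 and 12.92 with CASP8AP2 siRNA (difference -0.18 ± 0.05, adjusted p = 0.032). That call was lost without control replicate 3 or CASP8AP2 replicate 1 or 2 (differences of -0.17 to -0.15), and in 3 other alternatives. The differences of -0.10 on day 1 and -0.17 on day 3 were not called. Between the lines, U2OS minus hTERT-RPE1, the day 2 effects differed by -0.31 ± 0.07 (adjusted p = 0.00619).

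The other siRNAs left HIST1H1E with no call against control. With NPAT siRNA it was at 12.50 and 12.58 in U2OS cells (difference -0.29, 95% interval -0.49 to -0.09, adjusted p = 0.078), and 4 of the alternatives called this fall. With HINFP siRNA it was at 12.82 and 12.68 (difference -0.08, interval -0.28 to 0.12). HINFP minus CASP8AP2 siRNA was 0.46 ± 0.09 in U2OS cells (adjusted p = 0.0145), a call that was lost without CASP8AP2 replicate 1 or HINFP replicate 1 (0.35 and 0.39) and in a fit of the compared arrays alone.

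HIST1H1C, the gene of H1.2, was lower on day 1 with CASP8AP2 siRNA in both lines and on day 2 in U2OS cells. In U2OS cells its day 1 values were 10.89, 10.95 and 10.85 with control and 10.49, 10.45 and 10.57 with CASP8AP2 siRNA (difference -0.40 ± 0.05, adjusted p = 7.43e-05). On day 2 they were 11.03, 10.96 and 10.95 against 10.74, 10.79 and 10.88 (difference -0.18 ± 0.05, adjusted p = 0.0211). By day 3 the groups overlapped, at 10.37 and 10.48 against 10.42 and 10.35. The day 2 call was lost without control replicate 1 or CASP8AP2 replicate 1 or 2, with differences of -0.17 to -0.15, in a fit of the compared arrays alone, and after cyclic loess normalization, at -0.10. The effect of day 2 minus that of day 1 in U2OS cells was 0.22 and was not called (adjusted p = 0.0989), though 2 alternatives called it.

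In hTERT-RPE1 cells HIST1H1C on day 1 was at 10.69, 10.61 and 10.71 with control and at 10.39, 10.39 and 10.43 with CASP8AP2 siRNA (difference -0.27 ± 0.05, adjusted p = 0.0196). That call did not survive the loss of control replicate 1 or 3 or of CASP8AP2 replicate 1 or 2 (-0.26 to -0.25, adjusted p up to 0.0917) or a fit of the compared arrays alone. On day 2 the order had turned: the control arrays were at 10.64, 10.50 and 10.57 and the CASP8AP2 arrays at 10.65, 10.70 and 10.79, a difference of 0.14 that was not called. The shift of the effect from day 1 to day 2 was called, at 0.41 ± 0.08 (adjusted p = 0.011), the 1 H1 gene of 6 where 0.652% of all features were, though not in a fit of the compared arrays alone. With NPAT and HINFP siRNA the differences of HIST1H1C lay between -0.16 and 0.14 and were not called.

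HIST1H1B, the gene of H1.5, was lower with CASP8AP2 siRNA on day 2 in hTERT-RPE1 cells and stood far apart between the lines. In hTERT-RPE1 cells on day 2 it was at 11.36, 11.08 and 10.93 with control and at 10.37, 10.41 and 10.41 with CASP8AP2 siRNA (difference -0.72 ± 0.17, adjusted p = 0.00929). Without control replicate 1 the difference was -0.60 and missed the threshold (adjusted p = 0.0563). On day 1 its values of 11.25, 11.23 and 11.27 against 10.79, 10.49 and 10.90 did not overlap, but the difference of -0.52 was not called (adjusted p = 0.202). On day 3 the difference was -0.48 (adjusted p = 0.201). In U2OS cells, where the gene was low and its control arrays of day 1 spread from 5.20 to 5.96, the CASP8AP2 differences were -0.49, -0.04 and 0.26 on days 1, 2 and 3, with no call. Without control replicate 3 the day 1 difference was -0.66 and was called (adjusted p = 0.0258).

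HIST1H1D, the gene of H1.3, fell in hTERT-RPE1 cells on day 2. Its values were 4.46, 4.54 and 4.37 with control and 3.79, 3.85 and 3.95 with CASP8AP2 siRNA (difference -0.60 ± 0.08, adjusted p = 3.46e-05), with no overlap. On day 1 they were 4.38, 4.32 and 4.05 against 4.04, 3.86 and 4.02 (difference -0.28, adjusted p = 0.128), a fall that was called without control replicate 3, at -0.38 (adjusted p = 0.0225). On day 3 the arrays overlapped, at 4.60 and 4.58 against 4.66 and 4.31. In U2OS cells HIST1H1D gave no call under any siRNA, with all arrays at 3.53 to 3.79 in the first set and at 3.98 to 4.19 in the second.

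Over the lines, the day 2 effects of CASP8AP2 siRNA differed for 4 of the 6 genes, against 9.39% of all features. HIST1H1A, HIST1H1C (-0.32 ± 0.08, adjusted p = 0.0108) and HIST1H1E were more negative in U2OS cells. HIST1H1D was more negative in hTERT-RPE1 cells (0.49 ± 0.11, adjusted p = 0.0071), the line in which its control level was higher. For HIST1H1B the difference was 0.68 and was not called (95% interval 0.19 to 1.17, adjusted p = 0.0777). In a fit of the compared arrays alone the HIST1H1C call was lost (adjusted p = 0.0546) and HIST1H1B gained one (adjusted p = 0.0442), as it also did without U2OS CASP8AP2 replicate 3, at 0.82. For NPAT and HINFP siRNA no H1 gene differed between lines by limma, against 3.46% and 3.15% of all features, and the count at an unadjusted p under 0.05 was 0 for each.

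HIST1H1T, the gene of the testis subtype, was the 1 H1 gene of the 6 with rises, all of them with CASP8AP2 siRNA on days 2 and 3. In hTERT-RPE1 cells its values on day 2 were 3.23, 3.24 and 3.40 with control and 3.69, 3.87 and 3.52 with CASP8AP2 siRNA (difference 0.40 ± 0.11, adjusted p = 0.0252). On day 3 they were 3.10 and 3.13 against 3.73 and 3.94 (difference 0.72 ± 0.12, adjusted p = 0.00337). In U2OS cells they were 3.39, 3.53 and 3.32 against 3.74, 3.87 and 3.81 on day 2 (difference 0.39 ± 0.11, adjusted p = 0.00844). On day 3 they were 3.36 and 3.23 against 4.24 and 3.87 (difference 0.76 ± 0.12, adjusted p = 0.000984). The CASP8AP2 arrays were above the control arrays in each of these 4 comparisons, but all values stayed in the low part of the range.

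On day 1 the HIST1H1T groups overlapped in both lines, with differences of 0.20 in hTERT-RPE1 and 0.07 in U2OS cells. The day 2 call in hTERT-RPE1 cells was lost without any 1 of control replicates 1 and 2 or CASP8AP2 replicates 1 and 2 (0.31 to 0.40) and in a fit of the compared arrays alone. With NPAT siRNA the day 3 differences were 0.19 and 0.20, and with HINFP siRNA 0.28 and 0.38 (adjusted p = 0.0667 in U2OS cells), none of them called. NPAT minus CASP8AP2 was -0.52 ± 0.12 in hTERT-RPE1 cells (adjusted p = 0.0383) and -0.56 ± 0.12 in U2OS cells (adjusted p = 0.0229). Those calls did not hold in a fit of the compared arrays alone. They were also lost without any 1 of the 4 arrays in hTERT-RPE1 cells, at -0.63 to -0.42, and without CASP8AP2 replicate 1 or NPAT replicate 1 or 2 in U2OS cells, at -0.62 to -0.38.

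With control siRNA the lines differed most for HIST1H1B and HIST1H1A among the 6 genes. For HIST1H1B, U2OS minus hTERT-RPE1 was -5.70 ± 0.17 on day 1 (adjusted p = 2.15e-17), -5.86 ± 0.17 on day 2 and -5.03 ± 0.20 on day 3. Whether the U2OS values were above background was not tested. HIST1H1A went the other way and was higher in U2OS cells by 2.23 ± 0.12, 3.07 ± 0.12 and 3.05 ± 0.17 (adjusted p = 1.08e-12, 4.58e-15 and 6.31e-09). HIST1H1D was lower in U2OS cells, at -0.60, -0.79 and -0.46, and HIST1H1C higher, at 0.23, 0.41 and 0.37, each called on all 3 days.

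For these line differences the background was high. Of the 6 H1 genes, 4 were called on day 1 against 48.7% of all features, 4 on day 2 against 50.8% and 5 on day 3 against 43.8%, so nothing is read from these counts. Subtracting each array's median moved every line difference by -0.12, -0.16 and -0.06 on the 3 days, after which HIST1H1C on day 1 stood at 0.10 and was not called. HIST1H1E, at -0.02 on day 1, became -0.15 and was called (adjusted p = 0.0177). It differed by 0.06 on day 2 and by 0.32 on day 3 (adjusted p = 0.0129), a call that was lost without hTERT-RPE1 control replicate 2 or U2OS control replicate 1 (0.24 and 0.31), in a fit of the compared arrays alone and after cyclic loess normalization. HIST1H1C on day 3 was also not called after that normalization, at 0.23, or without U2OS control replicate 2. HIST1H1T differed by 0.12 to 0.18 with no call.

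Ordered by level, the groups fell by line first for HIST1H1A and HIST1H1B. On days 1 and 2 HIST1H1A ran from U2OS control on day 2, at 9.91 ± 0.14 (SD), through U2OS control on day 1, at 9.47 ± 0.08, to U2OS CASP8AP2 at 7.79 ± 0.19 and 7.33 ± 0.16. Below these came hTERT-RPE1 control at 7.24 ± 0.09 and 6.84 ± 0.22 and hTERT-RPE1 CASP8AP2 at 6.12 ± 0.18 and 5.63 ± 0.18. Only U2OS CASP8AP2 and hTERT-RPE1 control of day 1 had overlapping arrays among neighbours of that order. For HIST1H1B the 4 hTERT-RPE1 groups, at 10.40 to 11.25, stood above the 4 U2OS groups, at 5.06 to 5.55, all of which overlapped with their neighbours. Of the 7 pairs of neighbours in each order on days 1 and 2, 6 overlapped for HIST1H1C, 5 for HIST1H1E and 7 for HIST1H1T, and on day 3 4, 5 and 4 did. On day 3 the highest HIST1H1A group was U2OS HINFP at 9.96 ± 0.23 and the lowest hTERT-RPE1 NPAT at 5.61 ± 0.36, which overlapped with hTERT-RPE1 CASP8AP2.

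The 6 genes did not share 1 pattern over the arrays. After the mean of each line was subtracted within days 1 and 2 and within day 3, HIST1H1A and HIST1H1E correlated over the 40 arrays with Pearson's r = 0.76. For HIST1H1A and HIST1H1B r was 0.92 over the 20 hTERT-RPE1 arrays and 0.18 over the 20 U2OS arrays, and for HIST1H1A and HIST1H1C it was 0.11 and 0.84. In U2OS cells HIST1H1B was low, at 4.81 to 5.96 on days 1 and 2 and 3.92 to 4.73 on day 3. It had no call there against control, and whether noise at this level lowers its r was not tested. HIST1H1T ran against HIST1H1A in both lines, at r = -0.48 and r = -0.52. The arrays share their siRNA groups, so these values describe the group pattern and are given without a test.

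**Figure D4:**
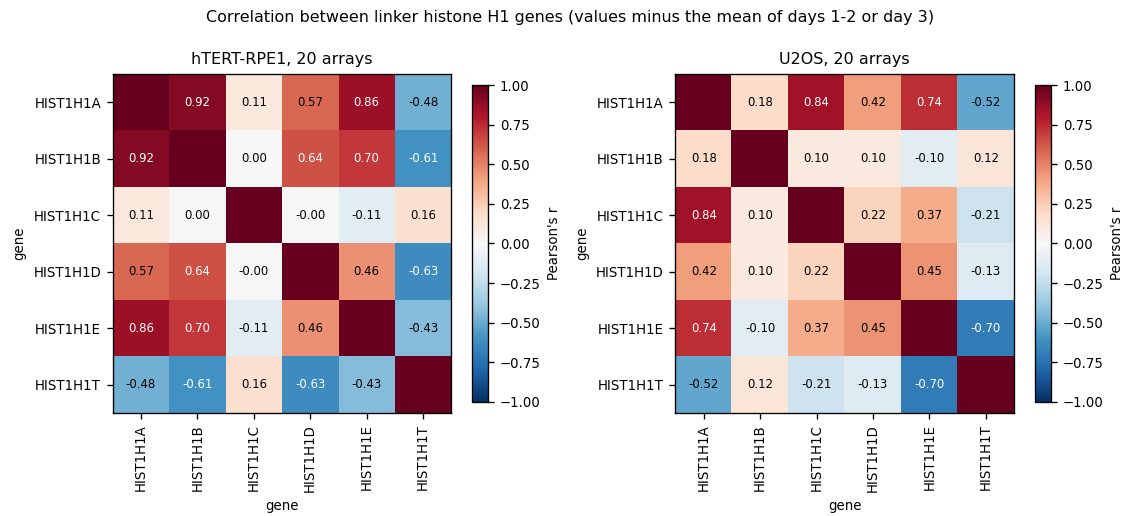
Pearson's r between each pair of linker histone H1 genes (both axes) over the 20 hTERT-RPE1 arrays on the left and the 20 U2OS arrays on the right, after the mean of days 1 and 2 or of day 3 was subtracted. The colour scale runs from -1 to 1. The pair HIST1H1A and HIST1H1B stands at 0.92 on the left and 0.18 on the right, where HIST1H1B was low, and HIST1H1A and HIST1H1C at 0.11 and 0.84.

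Likeness to other features was read with the same r over the 40 arrays, among the 1924 features (8.72%) for which a symbol was at hand. HIST1H1A was most like CASP8AP2 itself at 0.87, a value to which the CASP8AP2 knockdown contributes directly, then LRRC40 at 0.84 and UBE2V2 at 0.83. HIST1H1E was most like OSMR and OSGEPL1, both at 0.85, and BFAR at 0.84, and HIST1H1T most like JAG1 at 0.80, IL4R at 0.77 and MYLIP at 0.74. For HIST1H1B the values were lower, with GMEB2 at 0.69, POLR1C at 0.52 and LIG3 at 0.52. For HIST1H1C they were 0.64 with MARCH2, 0.61 with C15orf17 and 0.60 with HIST1H1A, and for HIST1H1D 0.49 with PAFAH2, 0.49 with HIST1H1B and 0.48 with DPYD. When all 22069 features were ranked, HIST1H1A for HIST1H1C was the only H1 gene among the 20 most like another H1 gene.

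Of 5 other linker histone genes, 1 could be matched, H1F0, which encodes H1.0, a subtype made outside S phase and in resting cells. With CASP8AP2 siRNA in hTERT-RPE1 cells it rose by 2.29, 2.46 and 1.99 on days 1, 2 and 3 on the arrays where HIST1H1A fell. In U2OS cells it differed by 0.10, -0.08 and -0.27 with no call. NPAT siRNA on day 3 also raised it in hTERT-RPE1 cells, by 1.34 (called), while in U2OS cells it differed by -0.26 with no call. With control siRNA it was higher in U2OS cells by 5.21, 5.33 and 5.09, the reverse of HIST1H1B. With HINFP siRNA H1F0 fell by 0.64 in hTERT-RPE1 (adjusted p = 0.038 in limma) and by 1.68 in U2OS cells (adjusted p = 3.23e-05). The 6 H1 genes of the cluster gave no call there, which does not show lack of change. H1F0 was not tested against them.

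Regulators of histone genes were read from a list of 16, of which 10 were matched, the 3 siRNA targets among them. With CASP8AP2 siRNA in U2OS cells on day 2, 5 of the 10 were lower and 1 higher, in a comparison where 24.9% of all features were called. Apart from the target these were E2F1 at -0.32, E2F2 at -0.70, cyclin E genes CCNE1 at -0.23 and CCNE2 at -0.60, and HINFP at 0.19. On day 1, where 5.87% of all features were called, 2 of the 10 were lower, CASP8AP2 and CCNE2, the latter at -0.42. In hTERT-RPE1 cells on day 2, where 6.4% of all features were called, CCNE1 at -0.37 was the only call besides CASP8AP2. On day 3 with CASP8AP2 siRNA E2F2 was lower in both lines, at -0.63 in hTERT-RPE1 and -0.51 in U2OS cells, and CCNE1 at -0.52 in hTERT-RPE1 cells. NPAT siRNA gave no call in this list other than NPAT itself in either line, against 5.04% of all features in hTERT-RPE1 and 8.13% in U2OS cells. With HINFP siRNA E2F2 was lower in both lines, at -0.72 in hTERT-RPE1 and -0.44 in U2OS cells, and E2F1 and CCNE1 also in hTERT-RPE1 cells, at -0.55 and -0.49. The H1 genes gave no call there, which does not show lack of change.

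Genes of DNA replication and chromatin assembly, 6 matched of 9, were read beside the H1 genes. They do not measure the share of cells in S phase. With CASP8AP2 siRNA in U2OS cells 0 of 6 were called by limma on day 1 (1 at an unadjusted p under 0.05), when HIST1H1A and HIST1H1C were lower. Of all features, 5.87% were called there. On day 2, 5 of 6 were lower, where 24.9% of all features were called in either direction, at -0.36 for RBBP4 and -0.33 for CHAF1B, both subunits of the chromatin assembly factor CAF-1, -0.33 for RBBP7, -0.22 for the helicase subunit MCM3 and -0.20 for the polymerase subunit POLA1, with a median of -0.27 over the 6. On day 3, where 18.9% of all features were called, CHAF1B and RBBP7 were lower, both at -0.32. In hTERT-RPE1 cells 0, 1 and 0 of 6 were called on days 1, 2 and 3 (0, 2 and 1 at an unadjusted p under 0.05), the 1 being MCM3 at -0.22. The shares of all features called there were 0.793%, 6.4% and 6.15%. These counts were not tested between lines. With NPAT siRNA 0 of 6 were called in either line (3 in hTERT-RPE1 and 0 in U2OS cells at an unadjusted p under 0.05), against 5.04% and 8.13% of all features. With HINFP siRNA CHAF1B was lower in both lines, at -0.47 in hTERT-RPE1 and -0.41 in U2OS cells, where 4.15% and 9.43% of all features were called. The part of these genes' changes in the H1 values was not tested. On day 1 HIST1H1A was lower in both lines with none of the 6 called. Lack of a call does not show lack of change, and the order of the changes was not tested.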

How the data were processed

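Human WT 1.1 arrays of 40 RNA samples were used. Per the labels and the study's methods, the authors read CEL files in R, using affy and a custom CDF keyed to Ensembl genes, and the submitters' processing notes name RMA. The CDF version and genome build are not given in the sources used here. The values used are the log2 expression values the authors deposited. Days 1 and 2 and day 3 were not combined in the tests, except in the alternative with all 40 arrays. How the RNA was primed for labelling is not given in the sources used here, and an array value does not separate mRNA forms with and without a poly(A) tail.

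Groups came from the labels. limma 3.58.1 in R 4.3.3 was fitted to 8 group means in each set (24 arrays with 16 residual degrees of freedom, and 16 arrays with 8). It used eBayes defaults and Benjamini-Hochberg adjustment over 22069 features, called at 0.05. In all, 26 comparisons were made. The fit was tested on simulated data. Intervals are 95% intervals of the fit; the number of arrays limits the precision. Alternatives were a fit of the compared arrays alone, all 40 arrays in 1 fit, centring on the median, cyclic loess, features with a mean of at least 5, a trend in eBayes, the replicate block and leaving out each array. All 6 H1 genes are named in each family of comparisons; other genes come from lists, by symbols paired with identifiers in the study's supplement, and for likeness the 3 named features of highest r. The 6 genes and the lists were chosen with earlier results of these data known.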

Additional observations from a re-analysis of the deposited data

Results flagged for a closer look

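For 4 linker histone H1 genes CASP8AP2 siRNA had an effect that differed between cell lines or between days by a test of the difference itself, in limma with adjustment over all features. For the line difference 0.689% of all features were called on day 1 and 9.39% on day 2. For the day change 0.652% were called in hTERT-RPE1 and 7.04% in U2OS cells. The number of H1 genes is not read as a result. HIST1H1A fell more in U2OS than in hTERT-RPE1 cells, with a difference between the effects of -1.02 on day 1 and -0.91 on day 2 (log2). On day 2 HIST1H1C and HIST1H1E were also more negative in U2OS cells, by -0.32 and -0.31. On that day HIST1H1D was more negative in hTERT-RPE1 cells, at 0.49 for U2OS minus hTERT-RPE1. Its U2OS arrays of days 1 and 2 lay in the low part of the range, at 3.53 to 3.79. From day 1 to day 2 the effect on HIST1H1C shifted by 0.41 in hTERT-RPE1 cells and that on HIST1H1E by -0.32 in U2OS cells. Both HIST1H1C calls were lost in a fit of the compared arrays alone. Groups of 2 or 3 arrays are too small for a test of single outlying arrays, and none was made.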

How the results depend on the processing

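Over the 156 values of the 6 H1 genes in 26 comparisons, 47 of them called, 7 alternatives gave 1040 values. Of these, 981 kept direction and side of the threshold, 18 lost a call, 19 gained one, 22 that were not called changed sign, and 0 called values reversed; leaving out an array gave 960 values, of which 36 lost a call, 6 gained one and 0 reversed. HIST1H1A with CASP8AP2 siRNA on days 1 and 2 stayed called in both lines in all of these. The number of H1 genes called moved by over 1.5 times in the following cases. In a fit of the compared arrays alone it was 1 for CASP8AP2 minus control in hTERT-RPE1 cells on day 1 and 3 on day 2, 0 for the change from day 1 to day 2 there, 0 for NPAT minus control, HINFP minus NPAT and NPAT minus CASP8AP2 in hTERT-RPE1 cells, 1 for HINFP minus CASP8AP2 and 0 for NPAT minus CASP8AP2 in U2OS cells. NPAT minus control in U2OS cells gave 2 after centring, with the filter at a mean of 5, with a trend and with all 40 arrays. Cyclic loess gave 2 for the day change in U2OS cells and 3 for the control lines on day 3. The filter, which leaves out HIST1H1D and HIST1H1T, gave 3 and 1 for CASP8AP2 minus control in hTERT-RPE1 cells on days 2 and 3 and 0 for NPAT minus CASP8AP2 in both lines. A trend gave 2 for the day change in U2OS cells and 1 for the line difference of CASP8AP2 on day 3. All 40 arrays in 1 fit gave 1 for that difference, 1 for HINFP minus control in U2OS cells, and 2 each for HINFP minus CASP8AP2 and NPAT minus CASP8AP2 in hTERT-RPE1 cells and for HINFP minus NPAT and NPAT minus CASP8AP2 in U2OS cells. Leaving out an array gave 1 to 2, 3 to 5 and 1 to 1 for CASP8AP2 minus control in hTERT-RPE1 cells on days 1, 2 and 3, 0 to 1 for NPAT minus control in both lines, 0 to 1 for the day 3 line difference of CASP8AP2, 0 to 1 and 1 to 3 for HINFP minus CASP8AP2 in hTERT-RPE1 and U2OS cells, and 0 to 0 and 0 to 1 for NPAT minus CASP8AP2. Apart from the filter, which tests fewer features, and the fits with fewer or more arrays, the cause was not tested.

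The replicate numbers were not taken to pair the arrays. Deviations of same-numbered arrays correlated at -0.10 to 0.06 on days 1 and 2. On day 3 they correlated at -0.12 to 0.21, where 10 of 24 pairs of arrays, but not all, were over 0.1. With 2 arrays in a group both replicate numbers give the same value, so these 24 pairs are not independent. With the replicate block 155 of 156 values kept their side of the threshold, and HIST1H1B gained a call for the day 2 line difference of CASP8AP2, at 0.68. The number of all features called moved by over 1.5 times in 19 of 26 comparisons in a fit of the compared arrays alone (for HINFP minus control in hTERT-RPE1 cells, from 915 to 25), in 14 with all 40 arrays in 1 fit (for the line difference of NPAT, from 764 to 2131) and in 1 with the filter at a mean of 5.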
